A study of Homo sapiens with 16 samples.

Results

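The human mitochondrial genome carries 37 genes, and all 37 were in the count table, found as the rows whose symbol starts with MT- among 37864 genes. They were 13 mRNAs, 2 rRNAs and 22 tRNAs. Their RNA was measured by RNA sequencing in MDA-MB-231, an established human triple-negative breast cancer cell line grown in DMEM with 10% fetal bovine serum and antibiotics. The 16 libraries fell into 4 groups of 4. Cells received afatinib together with paclitaxel (the combination), afatinib alone, paclitaxel alone or DMSO, the solvent. Afatinib binds covalently to EGFR and its sister kinases and blocks them, while paclitaxel locks microtubules in their assembled state. Doses and exposure times are not given in the sources used here, and the treatment text of the labels also names doxorubicin, for which no sample was analysed here. The labels do not tell whether each replicate was its own culture. The p-values below therefore speak of the scatter among these 16 libraries, part or all of which may be technical.

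Mitochondrial DNA is a small circle that lies in many copies in each cell. Each strand is transcribed as a long precursor, and the tRNAs that stand between most mRNAs and rRNAs are cut out to free them, so the amount of each mature RNA depends on transcription, on processing and on its own stability. The mRNAs encode core subunits of respiratory complexes I, III and IV and of the ATP synthase (complex V), the rRNAs form the mitochondrial ribosome, and the tRNAs read the codons. The transcript of the heavy strand yields most of these RNAs. The transcript of the light strand yields MT-ND6 and 8 of the tRNAs.

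Sequences are shown for the tRNAs whose counts moved most or served for comparison, with the anticodon in capitals. They come from the GENCODE v29 transcripts (build GRCh38) and run 5′ to 3′ with T for U. MT-TN (tRNA-Asn, chrM:5657-5729) and MT-TC (tRNA-Cys, chrM:5761-5826) lie beside each other on the minus strand and are light-strand products, as is MT-TP (tRNA-Pro, chrM:15956-16023, minus strand). MT-TH (tRNA-His, chrM:12138-12206) and MT-TF (tRNA-Phe, chrM:577-647) lie on the plus strand and are heavy-strand products.
MT-TN: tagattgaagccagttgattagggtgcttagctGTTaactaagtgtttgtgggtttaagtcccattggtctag
MT-TC: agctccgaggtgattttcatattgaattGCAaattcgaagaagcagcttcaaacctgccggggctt
MT-TP: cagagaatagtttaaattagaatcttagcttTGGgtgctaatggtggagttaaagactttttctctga
MT-TH: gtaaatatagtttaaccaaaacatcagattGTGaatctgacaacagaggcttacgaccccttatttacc
MT-TF: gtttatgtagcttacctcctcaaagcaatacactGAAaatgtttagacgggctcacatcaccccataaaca

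Genes of the circle stand so close that some share bases, which are shown because a read over the join belongs to both genes. The end of MT-ND4L and the start of MT-ND4, which lie on 1 bicistronic mRNA, share 7 bases at chrM:10760-10766 (in capitals), and MT-ATP8 and MT-ATP6 share 46 bases at chrM:8527-8572.
MT-ND4L, last 30 bases: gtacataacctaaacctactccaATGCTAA
MT-ND4, first 30 bases: ATGCTAAaactaatcgtcccaacaattata

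Library totals ran from 28366004 to 48108577 counts. Of the 37 genes, 24 had enough counts to be tested (the 13 mRNAs, the 2 rRNAs and 9 tRNAs), among 17991 genes in all. The other 13 tRNAs had at most 14 counts in any library and are not described one by one. The markers fixed for the cell line were as labelled: VIM, CD44, EGFR, MSN and LGALS1 summed to 4532 to 7059 CPM (counts scaled to a common library size with TMM factors) and ESR1, PGR, ERBB3, CDH1, EPCAM and GATA3 to 22.4 to 30.8 CPM. Markers of blood cells (2 of 4 matched) summed to at most 0.111 CPM, of fibroblasts (3 of 4) to at most 0.37 CPM and of endothelial cells (3 of 3) to 1.56 to 5.07 CPM. In each group the labelled RNA concentration was higher in replicates 1 and 2 than in 3 and 4, and this set of replicates entered every fit as a term. The labels do not say what sets these pairs of replicates apart beyond that concentration.

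Mitochondrial genes took a larger share of the counts in every treated library than in both DMSO libraries of its own replicate set. For replicates 1 to 4 the share was 3.48, 2.94, 7.78 and 9.71% with the combination and 2.76, 2.87, 7.23 and 7.05% with afatinib. It was 3.22, 3.43, 5.03 and 8.09% with paclitaxel and 2.38, 2.26, 4.09 and 4.72% with DMSO. Within each group replicates 3 and 4 were above replicates 1 and 2, so the groups overlapped when all 4 replicates were pooled (5.98 ± 3.3% with the combination, 4.98 ± 2.5% with afatinib, 4.94 ± 2.25% with paclitaxel and 3.36 ± 1.23% with DMSO, SD, n = 4). No test was made of this summed share. In bulk RNA, a larger share can come from more mitochondrial RNA per cell, from less of other RNA or from a changed mix of cells, and these cannot be told apart.

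**Figure D1:**
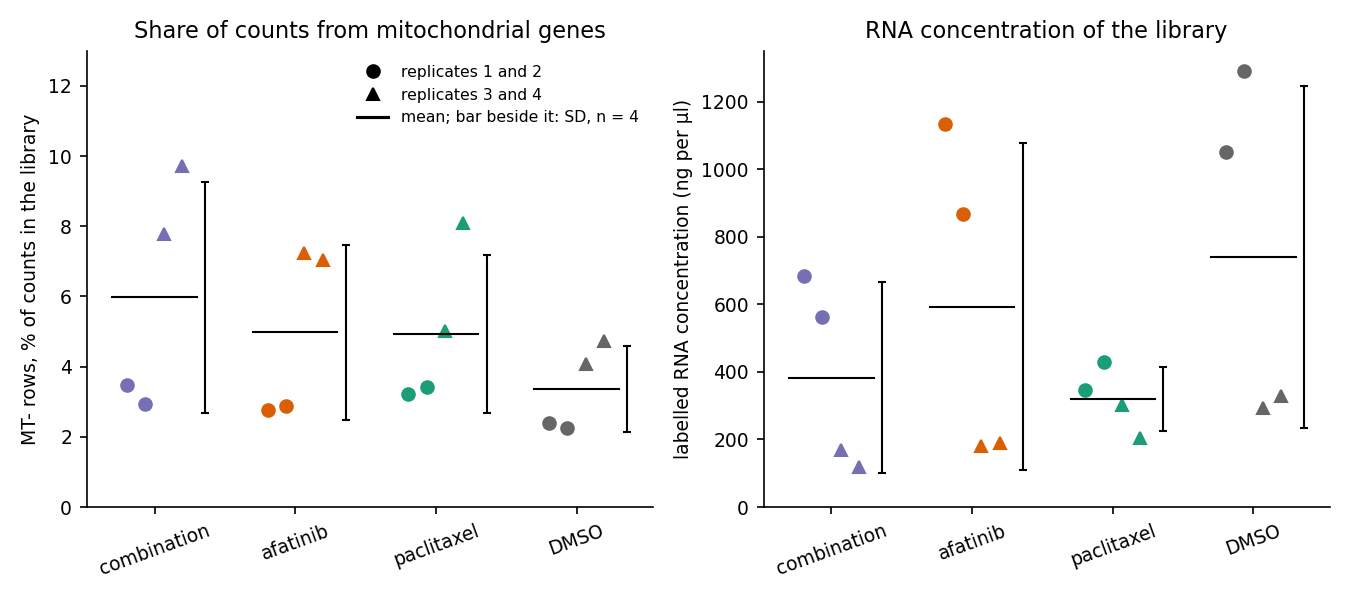
Share of each library's counts from the 37 mitochondrial genes (left, percent) and labelled RNA concentration (right, ng per µl) by group, with 1 point per library, circles for replicates 1 and 2, triangles for replicates 3 and 4, a line at the mean and a bar for the SD (n = 4). Triangles lie above circles on the left (4.09% and more, against 3.48% and less) and below them within each group on the right.

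RNA concentration moved with the groups as well as with the sets. It was 685, 561.5, 168 and 118 ng/µl with the combination, 1135, 869, 181 and 188 ng/µl with afatinib, 346, 429.7, 300.5 and 204 ng/µl with paclitaxel and 1050.5, 1291, 292 and 330.0 ng/µl with DMSO. Libraries of low concentration were those of high mitochondrial share within each group except for the order inside a pair. What part of the changes below goes with concentration cannot be told apart from the drugs in full. A fit with concentration as a further term is given for each count of mitochondrial genes.

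Against DMSO, 6 mRNAs rose both with the combination and with afatinib. They were 4 of complex I (MT-ND4, MT-ND4L, MT-ND5 and MT-ND6), MT-CYB and MT-CO2. The tRNAs MT-TN and MT-TC also rose in both. With paclitaxel the log2 fold changes ran from −0.29 to 0.80. Of the 24 tested genes, 14 rose and 2 fell with the combination. Among all genes 38% were called there (18.5% higher, 19.5% lower) at an adjusted p under 0.05 in the quasi-likelihood test of edgeR. With afatinib 8 rose and 2 fell, against 19.1% of all genes called (9% higher, 10.1% lower). With paclitaxel 6 rose and none fell, against 20.5% of all genes (8.65% higher, 11.9% lower). There 13 of the 24 had an unadjusted p under 0.05, against 5760 of all 17991 genes. DESeq2 called 5 of the 24 higher with paclitaxel and none lower. The median log2 fold change of the 24 was 0.67 with the combination, 0.04 with afatinib and 0.44 with paclitaxel, and that of all genes was 0.00 in each. In replicates 1 and 2 alone the median was 0.34 with the combination, and in replicates 3 and 4 alone it was 0.35 with afatinib. With RNA concentration in the fit it was 0.37 with the combination and 0.19 with paclitaxel, and it was 0.08 with the combination and −0.25 with paclitaxel in the deposited concentration-corrected table. These 3 comparisons share the DMSO libraries.

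These counts held to different degrees. With RNA concentration as a further term, 7 genes with the combination, 9 with afatinib and none with paclitaxel were called. Without the set term 2, none and none were. The shares of all genes called in these fits are not given here. Whether the lower counts are particular to mitochondrial genes therefore cannot be read from them. For paclitaxel, the count of 6 became 1 without paclitaxel replicate 4, 2 without paclitaxel replicate 2, DMSO replicate 3 or DMSO replicate 4, 3 without paclitaxel replicate 1 and 14 without paclitaxel replicate 3.

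**Figure D2:**
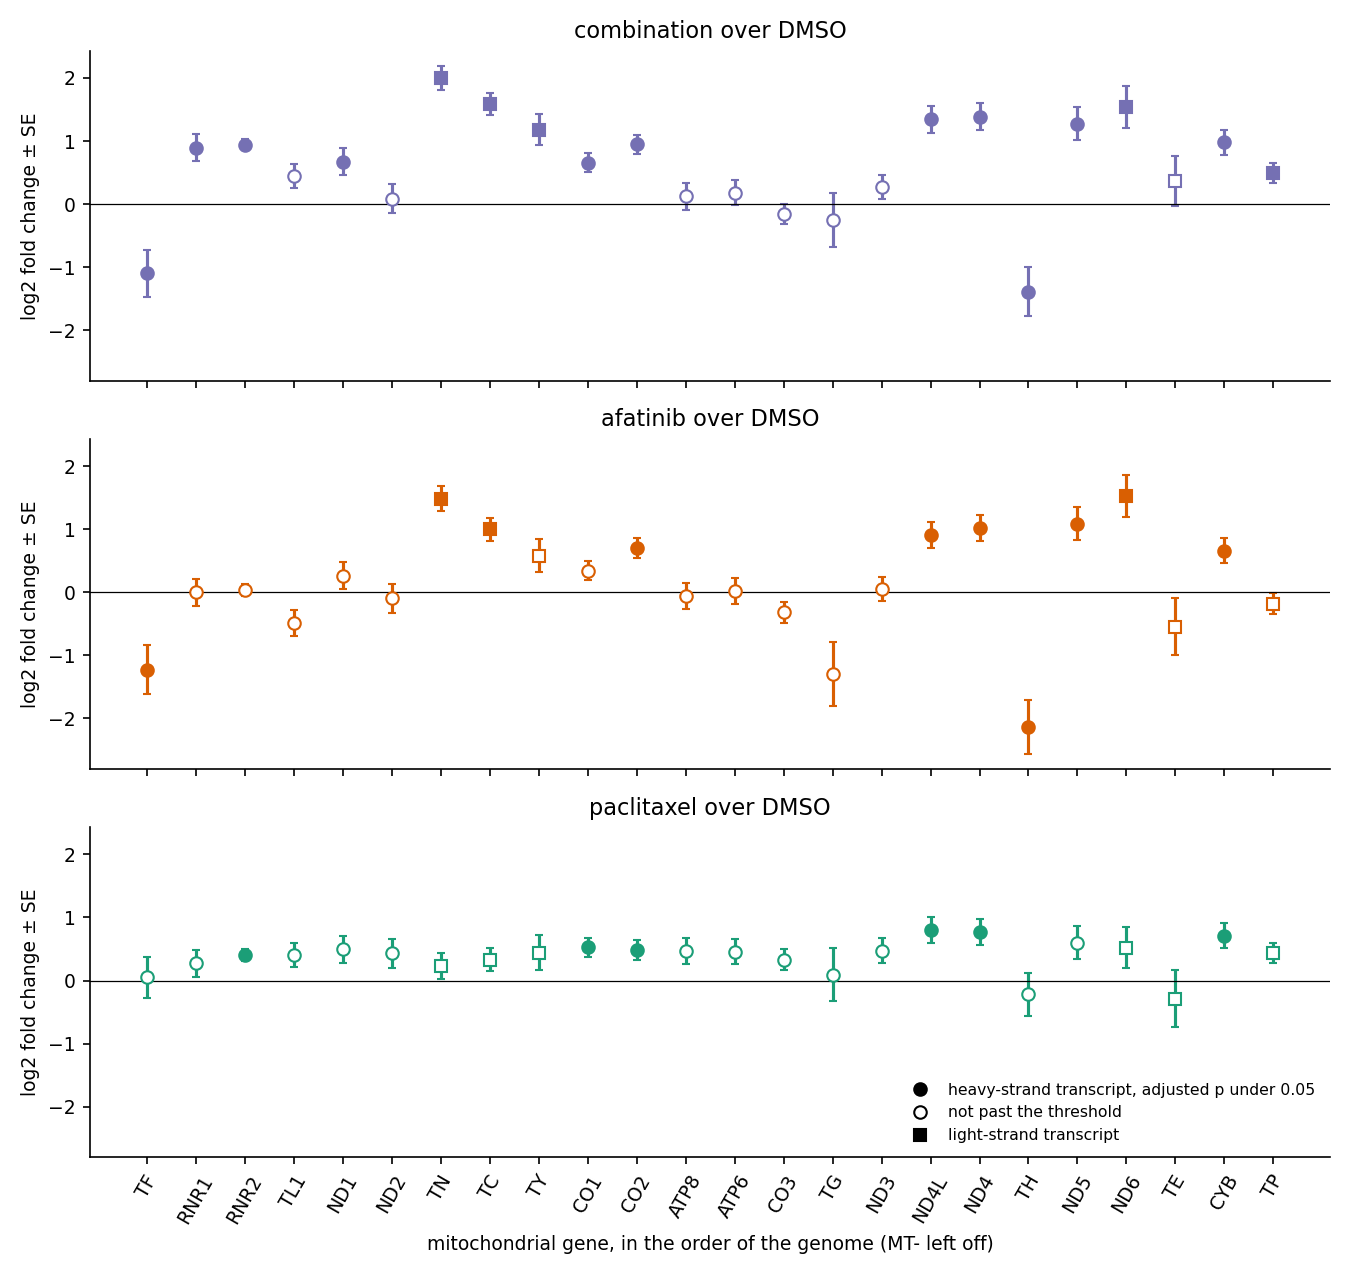
Log2 fold change ± SE of the 24 tested mitochondrial genes over DMSO (edgeR, 4 libraries per group), in the order of the genome, for the combination, afatinib and paclitaxel. Filled symbols passed an adjusted p of 0.05 and squares are light-strand transcripts. With the combination and with afatinib the mRNAs from MT-ATP8 to MT-ND3 lie near 0 between MT-CO2 and MT-ND4L, which lie higher, whereas with paclitaxel the mRNAs lie between 0.33 and 0.80.

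Complex I, which takes electrons from NADH, gave the largest mRNA changes. MT-ND4, a subunit of its proton-pumping arm, had 6814, 5387, 17208 and 23066 CPM with the combination, 5393, 4970.3, 14457 and 14359 CPM with afatinib, 4875, 5135, 7443 and 13813 CPM with paclitaxel, and 3248, 2893, 5193 and 6527 CPM with DMSO. Within each replicate set every treated library was above both DMSO libraries. MT-ND4 rose by 1.39 ± 0.21 on the log2 scale with the combination (edgeR adjusted p = 0.00022), by 1.02 ± 0.21 with afatinib (adjusted p = 0.00515) and by 0.77 ± 0.21 with paclitaxel (adjusted p = 0.0198). The first of these was 2.62-fold, and the last was lost without paclitaxel replicates 2 or 4 or DMSO replicates 3 or 4 (adjusted p up to 0.0593). MT-ND4L, a small membrane subunit read from the same mRNA, rose by 1.34 ± 0.21, 0.91 ± 0.21 and 0.80 ± 0.21 in the same order of drugs (the last lost without paclitaxel replicate 4, adjusted p = 0.0513), and its counts were 0.12 to 0.142 of those of MT-ND4 in all 16 libraries.

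MT-ND5, another subunit of the membrane arm, had 1273, 1639, 4881 and 6112 CPM with the combination, 955, 1826, 4659.5 and 4381 CPM with afatinib, 886, 1393, 2022 and 3545 CPM with paclitaxel, and 685, 834, 1629 and 2004 CPM with DMSO. Replicate 2 was above replicate 1 in every group, and within each set the treated libraries did not overlap with DMSO. It rose with the combination (1.27 ± 0.26, adjusted p = 0.00234) and with afatinib (1.09 ± 0.26, adjusted p = 0.0131), and had 0.60 ± 0.26 with paclitaxel (adjusted p = 0.133).

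MT-ND6 is the only mRNA of the light strand. It had 258, 424, 1146 and 1410.0 CPM with the combination, 218, 507, 1286 and 1088 CPM with afatinib, 129, 269, 407 and 669 CPM with paclitaxel, and 107, 181, 324 and 396 CPM with DMSO. The combination and afatinib libraries were above the DMSO libraries of their set, while paclitaxel replicate 1 lay between its DMSO pair. MT-ND6 rose 2.91-fold with the combination (1.54 ± 0.33, adjusted p = 0.00338) and 2.87-fold with afatinib (1.52 ± 0.33, adjusted p = 0.00847). With paclitaxel it had 0.52 ± 0.33 (adjusted p = 0.312, 95% interval −0.20 to 1.24). In replicates 1 and 2 alone, fitted without a block, MT-ND5 and MT-ND6 had 0.94 and 1.24 with the combination (adjusted p = 0.21 and 0.275) and 0.88 and 1.34 with afatinib (adjusted p = 0.34 and 0.353). Replicate 1 was below replicate 2 in every group there, and each combination and afatinib library was above the DMSO library of its own number. With RNA concentration in the fit, the combination had 0.85 for MT-ND5 (adjusted p = 0.104) and 1.21 for MT-ND6 (adjusted p = 0.103).

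The 3 remaining complex I mRNAs lie upstream of MT-ND4L and moved less. MT-ND1 rose with the combination (0.67 ± 0.21, adjusted p = 0.0267) and had 0.26 ± 0.21 with afatinib and 0.50 ± 0.21 with paclitaxel. MT-ND2 had 0.09 ± 0.23 with the combination (95% interval −0.42 to 0.60), −0.10 ± 0.23 with afatinib (−0.61 to 0.41) and 0.43 ± 0.23 with paclitaxel (−0.08 to 0.94). MT-ND3 had 0.27 ± 0.19, 0.05 ± 0.19 and 0.48 ± 0.19 in the same order of drugs. The other 8 of these 9 values did not pass the test, and the call of MT-ND1 was lost without combination replicates 1 or 4 or DMSO replicates 3 or 4 (adjusted p up to 0.0835).

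MT-CYB, the cytochrome b of complex III, had 1424, 1162, 3332 and 4648 CPM with the combination, 1099, 1105, 3016 and 3022 CPM with afatinib, 1252, 1370.1, 1928 and 3515 CPM with paclitaxel, and 843, 830.3, 1410.0 and 1759 CPM with DMSO. Each treated library was above the DMSO libraries of its set. It rose in all 3 comparisons (0.98 ± 0.20, adjusted p = 0.00201; 0.66 ± 0.20, adjusted p = 0.0378; 0.71 ± 0.20, adjusted p = 0.0251). The afatinib call was lost when any of 11 single libraries was left out (adjusted p up to 0.107), and the paclitaxel call when any of 5 was (up to 0.0734: DMSO replicates 3 and 4 and paclitaxel replicates 1, 2 and 4).

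The 3 mRNAs of complex IV, the terminal oxidase, went different ways. MT-CO2 rose in all 3 comparisons, by 0.95 ± 0.15 with the combination (adjusted p = 0.000202), 0.70 ± 0.15 with afatinib (adjusted p = 0.00534) and 0.48 ± 0.15 with paclitaxel (adjusted p = 0.0386). MT-CO1, the catalytic subunit, had 7086, 5975, 18842 and 24803 CPM with the combination, 5573, 5996, 16708 and 15587 CPM with afatinib, 7136, 7665, 12529.9 and 19793 CPM with paclitaxel, and 5255, 5139, 10246 and 11927 CPM with DMSO. Every treated library was above the DMSO libraries of its set. MT-CO1 rose with the combination (0.66 ± 0.15, adjusted p = 0.0031) and with paclitaxel (0.53 ± 0.15, adjusted p = 0.0237) and had 0.34 ± 0.15 with afatinib (adjusted p = 0.135). The paclitaxel calls of MT-CO1 and MT-CO2 were lost without DMSO replicates 3 or 4 or paclitaxel replicates 1, 2 or 4 (adjusted p up to 0.0814 and 0.11), and that of MT-CO2 without 4 other libraries as well.

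MT-CO3 stood apart from these. It had 1878, 1514, 4899 and 6758 CPM with the combination, 1660.5, 1638, 5018 and 4740.4 CPM with afatinib, 2963, 2979.5, 5349 and 7965 CPM with paclitaxel, and 2444, 2351, 4672 and 5696 CPM with DMSO. In replicates 1 and 2 it was lower with the combination and with afatinib than with DMSO, and in replicates 3 and 4 the ranges overlapped. Over all libraries it had −0.16 ± 0.16 with the combination (95% interval −0.51 to 0.19), −0.32 ± 0.16 with afatinib (−0.67 to 0.03) and 0.33 ± 0.16 with paclitaxel (−0.01 to 0.68), none past the test. Within replicates 1 and 2 alone, MT-CO3 was called lower with the combination (−0.50, adjusted p = 0.000582) and with afatinib (−0.53, adjusted p = 0.00223) and higher with paclitaxel (0.31, adjusted p = 0.0267).

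The complex V mRNAs, MT-ATP6 and MT-ATP8, are read from 1 bicistronic mRNA next to MT-CO3. MT-ATP6 had 0.18 ± 0.20 with the combination (95% interval −0.26 to 0.62), 0.02 ± 0.20 with afatinib (−0.42 to 0.46) and 0.46 ± 0.20 with paclitaxel (0.02 to 0.90, adjusted p = 0.139). MT-ATP8 had 0.12 ± 0.21, −0.06 ± 0.21 and 0.47 ± 0.21. None passed the test.

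**Figure D3:**
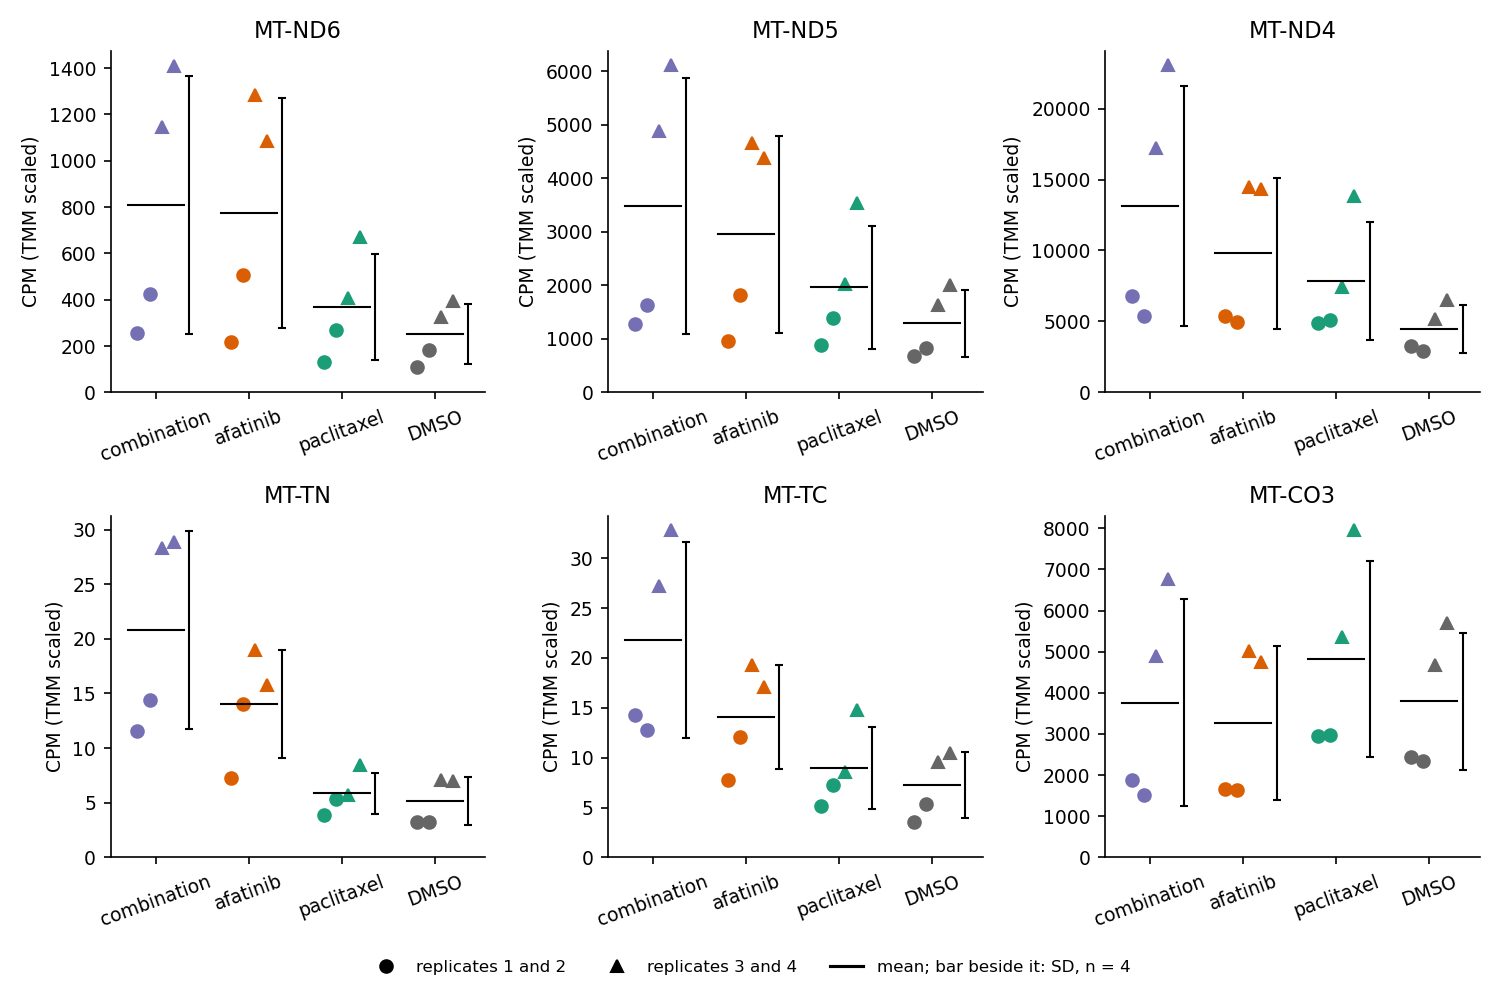
CPM of MT-ND6, MT-ND5, MT-ND4, MT-TN, MT-TC and MT-CO3 in each library, with circles for replicates 1 and 2, triangles for replicates 3 and 4, a line at the group mean and a bar for the SD (n = 4). In the first 5 panels the combination and afatinib points lie above the DMSO points of the same shape. In the MT-CO3 panel combination replicate 4 (6758 CPM) is the only combination or afatinib point above both DMSO points of its shape. Paclitaxel replicates 1, 2 and 4 lie above both DMSO points of their shape there.

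The 2 rRNAs changed with the combination and, for MT-RNR2, with paclitaxel. MT-RNR2, the rRNA of the large subunit of the mitochondrial ribosome, had 1957, 1952, 4287 and 4713 CPM with the combination, 969.7, 1178, 2656 and 1992 CPM with afatinib, 1301, 1596, 2539 and 3174 CPM with paclitaxel, and 972, 1116, 2222 and 2334 CPM with DMSO. Afatinib and DMSO overlapped in both sets, and the combination and paclitaxel lay above DMSO in both. MT-RNR2 rose 1.92-fold with the combination (0.94 ± 0.09, adjusted p = 3.22e-08) and 1.32-fold with paclitaxel (0.40 ± 0.09, adjusted p = 0.00302), and had 0.03 ± 0.09 with afatinib (95% interval −0.16 to 0.22). With RNA concentration in the fit MT-RNR2 had 0.28 with paclitaxel (adjusted p = 0.151), and in the deposited concentration-corrected table −0.26. MT-RNR1, of the small subunit, had 493, 487, 747 and 749.6 CPM with the combination, 243, 291, 468 and 324 CPM with afatinib, 237, 380.2, 593 and 406 CPM with paclitaxel, and 166, 295, 507 and 403 CPM with DMSO. It rose with the combination (0.90 ± 0.22, adjusted p = 0.0061), had 0.27 ± 0.21 with paclitaxel and 0.00 ± 0.21 with afatinib (95% interval −0.47 to 0.47).

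A pair of light-strand tRNAs gave the largest increases of the 24 tested mitochondrial genes with the combination. MT-TN, the asparagine tRNA, had 11.6, 14.4, 28.3 and 28.9 CPM with the combination, 7.31, 14.0, 19.0 and 15.8 CPM with afatinib, 3.89, 5.38, 5.76 and 8.44 CPM with paclitaxel, and 3.25, 3.28, 7.08 and 7.01 CPM with DMSO. All 4 combination and all 4 afatinib libraries were above all 4 DMSO libraries, and the paclitaxel libraries overlapped with DMSO. MT-TN rose 4.01-fold with the combination (2.00 ± 0.19, adjusted p = 6.91e-07) and 2.8-fold with afatinib (1.49 ± 0.19, adjusted p = 8.57e-05), and had 0.23 ± 0.21 with paclitaxel (adjusted p = 0.492). MT-TC, the cysteine tRNA, had 14.3, 12.8, 27.2 and 32.8 CPM with the combination, 7.75, 12.1, 19.3 and 17.1 CPM with afatinib, 5.19, 7.23, 8.56 and 14.8 CPM with paclitaxel, and 3.57, 5.33, 9.57 and 10.5 CPM with DMSO. The combination libraries did not overlap with DMSO, and the afatinib libraries did so only across sets. MT-TC rose 3.01-fold with the combination (1.59 ± 0.18, adjusted p = 2.71e-06) and by 1.00 ± 0.18 on the log2 scale with afatinib (adjusted p = 0.00107). It had 0.33 ± 0.18 with paclitaxel (adjusted p = 0.242).

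MT-TN and MT-TC kept their calls with the combination and with afatinib without any single library, with RNA concentration as a further term and in each replicate set alone. Their afatinib calls were lost without the set term, where no mitochondrial gene was called with afatinib. The labels describe the library preparation only as standard, and how well it captures tRNAs is not given. Of 36 tested small nucleolar RNAs, read here beside the tRNAs as other short RNAs, 2 rose and 6 fell with the combination, none was called with afatinib, and 3 rose and none fell with paclitaxel, against 38%, 19.1% and 20.5% of all genes called. Whether the authors' counting used the strand is not given in the sources used here, and if it did not, reads of light-strand genes cannot be told apart from heavy-strand precursor across the same bases.

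The other light-strand tRNAs moved less. MT-TY, the tyrosine tRNA beside MT-TC, rose with the combination (1.18 ± 0.25, adjusted p = 0.000535) on 40 to 97 counts per combination library and 11 to 55 per DMSO library. MT-TP, the proline tRNA and the first gene after the light-strand promoter, rose by 0.49 ± 0.16 with the combination (adjusted p = 0.0248, lost without combination replicates 3 or 4 or DMSO replicates 1 or 3) and had −0.18 ± 0.16 with afatinib. With paclitaxel it had 0.43 ± 0.16 (adjusted p = 0.0714), and 0.44 (adjusted p = 0.0266) with the replicate number as a block. MT-TE, the glutamate tRNA, had at most 18 counts in a library and passed no test against DMSO.

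Of the heavy-strand tRNAs that passed the filter, 2 fell on small counts. Without the filter, 4 more were called lower with afatinib (MT-TI, MT-TD, MT-TK and MT-TR) and 2 more with the combination (MT-TI and MT-TM). These had at most 14 counts in any library, and the share of all genes called without the filter is not given here. The 13 tRNAs under the filter, 3 of them from the light strand, summed to 0.824 ± 0.61 CPM with the combination, 0.445 ± 0.266 with afatinib and 1.45 ± 0.635 with paclitaxel, and 1.3 ± 0.727 with DMSO (SD, n = 4). MT-TH, the histidine tRNA next to MT-ND4, had 3, 4, 9 and 18 counts with the combination, 2, 1, 9 and 8 counts with afatinib, 6, 18, 21 and 21 counts with paclitaxel, and 8, 26, 28 and 24 counts with DMSO. The combination and afatinib libraries were below the DMSO libraries of their set. MT-TH fell with the combination (−1.39 ± 0.39, adjusted p = 0.00596) and with afatinib (−2.13 ± 0.43, adjusted p = 0.000959). MT-TF, the phenylalanine tRNA ahead of MT-RNR1, had 5, 1, 8 and 9 counts with the combination, 3, 3, 8 and 7 counts with afatinib, 6, 10, 12 and 16 counts with paclitaxel, and 5, 5, 22 and 19 counts with DMSO. It fell with the combination (−1.10 ± 0.38, adjusted p = 0.0237) and with afatinib (−1.23 ± 0.39, adjusted p = 0.0264). Its calls were lost without combination replicates 2, 3 or 4 or DMSO replicates 3 or 4 for the combination, and without replicates 3 or 4 of either group for afatinib (adjusted p up to 0.0744 and 0.107). MT-TL1, a leucine tRNA, did not pass against DMSO. MT-TG, the glycine tRNA, had −1.30 ± 0.50 with afatinib (edgeR adjusted p = 0.072), and −1.34 (adjusted p = 0.0442) with the replicate number as a block.

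The mix of mitochondrial mRNAs was compared within each library, where the shift between replicate sets largely drops out. MT-ND4 made up 19.6 to 21.3% of the mitochondrial counts with the combination, 18.8 to 20.7% with afatinib and 14.4 to 16.3% with paclitaxel, and 12.5 to 13.6% with DMSO. MT-CO3 made up 5.51 to 6.23% with the combination, 6.21 to 6.86% with afatinib and 8.98 to 10.3% with paclitaxel, and 10.3 to 11.3% with DMSO. Shares of a whole are tied to each other, so a rise in some lowers the rest.

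The ratio of MT-ND4 counts to MT-CO3 counts was 3.63, 3.56, 3.51 and 3.41 with the combination, 3.25, 3.03, 2.88 and 3.03 with afatinib, 1.65, 1.72, 1.39 and 1.73 with paclitaxel, and 1.33, 1.23, 1.11 and 1.15 with DMSO. None of the 4 groups overlapped with another over all 4 replicates. The means were 3.53 ± 0.09, 3.05 ± 0.151, 1.62 ± 0.16 and 1.2 ± 0.097 in the same order (SD, n = 4). The part of RNA concentration in this ratio was not tested. The gene pair was chosen after its values were seen, so the ratio is a description without a test.

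The ratio of MT-TN to MT-TP, both light-strand tRNAs, was also compared. Counts of MT-TN over those of MT-TP were 0.558 to 0.765 with the combination, 0.607 to 0.932 with afatinib and 0.154 to 0.236 with paclitaxel, and 0.187 to 0.281 with DMSO. The paclitaxel libraries overlapped with DMSO and the other groups did not. Counts of MT-ND6 over those of its neighbour MT-CYB, which is read from the other strand, were 0.298 ± 0.0823 with the combination, 0.361 ± 0.116 with afatinib and 0.175 ± 0.0488 with paclitaxel, and 0.2 ± 0.0487 with DMSO (SD, n = 4), with replicate 1 the lowest of each group and overlap between groups. Light-strand genes gave 1.39 ± 0.342% of mitochondrial counts with the combination, 1.63 ± 0.493% with afatinib and 0.795 ± 0.197% with paclitaxel, and 0.811 ± 0.183% with DMSO. These gene pairs, too, were chosen after their values were seen.

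**Figure D4:**
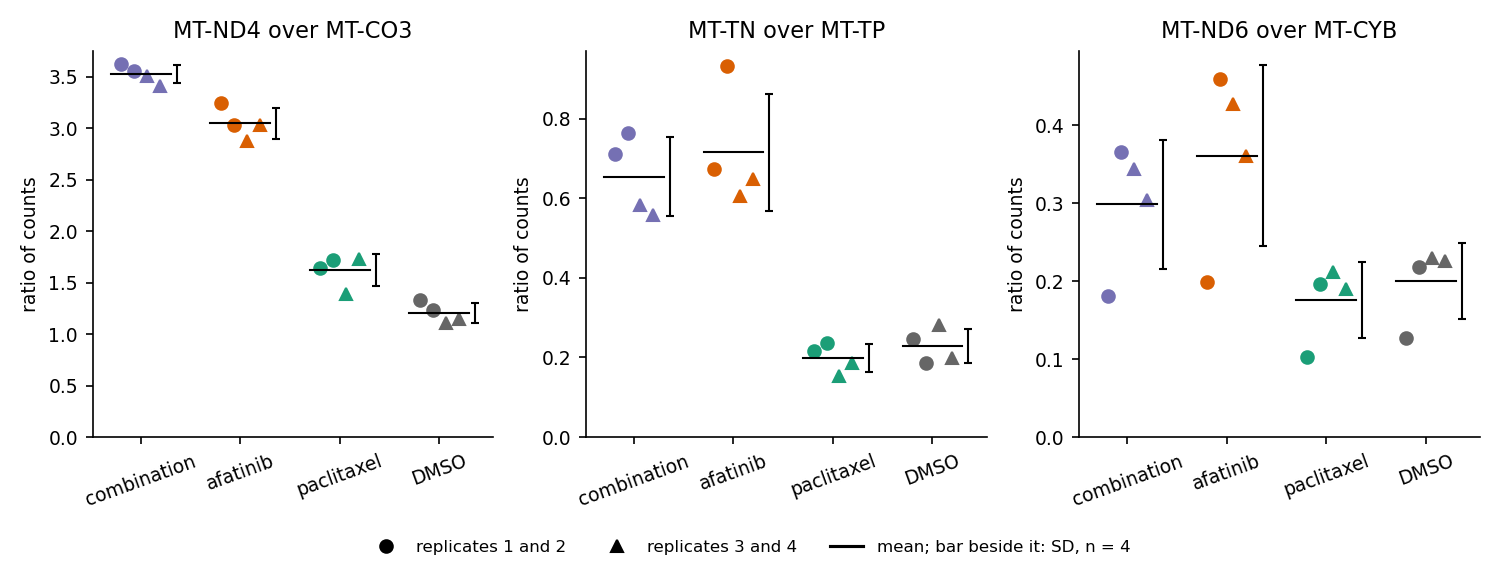
Ratios of counts within each library for MT-ND4 over MT-CO3, MT-TN over MT-TP and MT-ND6 over MT-CYB by group, with circles for replicates 1 and 2, triangles for replicates 3 and 4, a line at the mean and a bar for the SD (n = 4). Circles and triangles of a group lie together in the left panel, where the combination spans 3.41 to 3.63 and DMSO 1.11 to 1.33, and the replicate 1 circle is lowest of each group in the right panel.

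Levels were also ranked per length. In DMSO libraries MT-CO1 had the highest mean, 5279.8 ± 2249.7 CPM per kb (SD, n = 4), followed by MT-CO3 with 4835 ± 2121 and MT-CO2 with 4211 ± 1496 CPM per kb. MT-CO1 was above MT-CO3 in 4 of the 4 DMSO libraries and MT-CO3 above MT-CO2 in 3 of them. MT-ND4 had 9519.9 ± 6146 CPM per kb with the combination, 7108 ± 3868 with afatinib and 5672 ± 3019 with paclitaxel, and 3241 ± 1238 with DMSO, where it was at rank 7 of the 24. With the combination MT-ND4 had the highest mean and MT-CO3, with 4799 ± 3199 CPM per kb, was at rank 6. MT-ND6 had 1542 ± 1059 CPM per kb with the combination, 1475 ± 947 with afatinib and 702 ± 438 with paclitaxel, and 480.0 ± 251 with DMSO. The wide SDs hold the step between the replicate sets.

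Cells given paclitaxel besides afatinib had more rRNA and more of some tRNAs than cells given afatinib alone. Of the 24 genes 6 rose in the combination over afatinib and none fell, against 27.4% of all genes called (13.1% higher, 14.3% lower). In number the 6 of 24 are near the share of all genes called, and all 6 were higher. They were MT-TL1 (0.94 ± 0.20, adjusted p = 0.000932), MT-RNR2 (0.91 ± 0.09, adjusted p = 1.31e-07), MT-RNR1 (0.90 ± 0.22, adjusted p = 0.00867), MT-TP (0.67 ± 0.16, adjusted p = 0.00607), MT-TC (0.59 ± 0.17, adjusted p = 0.0145) and MT-TN (0.52 ± 0.18, adjusted p = 0.0398). The 13 mRNAs had values from 0.02 to 0.43 with none past the test. For MT-ND6 the difference was 0.02 ± 0.32 (95% interval −0.70 to 0.73) and for MT-ND4 0.37 ± 0.21 (−0.08 to 0.82). MT-RNR1, MT-RNR2, MT-TL1 and MT-TP kept their calls without any single library and with RNA concentration in the fit. MT-TC lost its call without afatinib replicate 4 or combination replicate 4 (adjusted p up to 0.0586) and MT-TN without any of 8 libraries (up to 0.121). With RNA concentration in the fit 4 were called, and replicates 1 and 2 alone gave 1 (MT-RNR2) and replicates 3 and 4 alone 6. The shares of all genes called in these other fits are not given here.

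Cells given afatinib besides paclitaxel had more MT-TN, MT-TC and MT-RNR2 than cells given paclitaxel alone, and other calls depended on the replicate set. Of the 24 genes 7 rose in the combination over paclitaxel and 3 fell, against 24.2% of all genes called (12.6% higher, 11.6% lower). Those that rose were MT-TN (1.77 ± 0.19, adjusted p = 9.27e-06), MT-TC (1.26 ± 0.17, adjusted p = 7.98e-05), MT-ND6 (1.02 ± 0.33, adjusted p = 0.0433), MT-TY (0.74 ± 0.24), MT-ND4 (0.61 ± 0.21, adjusted p = 0.0498), MT-RNR2 (0.54 ± 0.09, adjusted p = 0.000154) and MT-CO2 (0.47 ± 0.15). MT-TH (−1.17 ± 0.40), MT-TF (−1.15 ± 0.39) and MT-CO3 (−0.49 ± 0.16, adjusted p = 0.0405) fell. MT-TN, MT-TC and MT-RNR2 kept their calls without any single library, and each of the other 7 lost its call without at least 5 of the 16 libraries. The count of 10 became 3 without combination replicate 3, 5 without combination replicates 1 or 4 or paclitaxel replicate 4, and 6 without paclitaxel replicates 1 or 3 or DMSO replicate 4. Replicates 1 and 2 alone gave 2 higher and 4 lower and a median of −0.05 over the 24, and replicates 3 and 4 alone gave 9 higher, none lower and a median of 0.49. With the replicate number as a block 10 rose and 3 fell, and the added genes were MT-RNR1 (0.67, adjusted p = 0.00753), MT-ND4L (0.55, adjusted p = 0.0413) and MT-ND5 (0.70, adjusted p = 0.0198). With RNA concentration in the fit 10 were called, 9 of them the same genes. For these other fits, too, the shares of all genes called are not given here.

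The interaction asks whether the combination differed from the sum of both single-drug changes on the log2 scale. No mitochondrial gene passed edgeR's test, against 0.884% of all genes, and DESeq2 called 1 mitochondrial gene. An unadjusted p under 0.05 in edgeR was found for 1 mitochondrial gene and for 2256 of all 17991 genes. The mitochondrial gene nearest to a call was MT-RNR2, with 0.51 ± 0.13 (adjusted p = 0.0622). It passed in the fit with the replicate number as a block (0.51, adjusted p = 0.0176) and with RNA concentration in the fit (0.57, adjusted p = 0.0435). All 13 mRNAs had values below 0, from −0.50 for MT-ND6 (95% interval −1.52 to 0.51) to −0.08 for MT-ND1 (−0.74 to 0.58). Both rRNAs and all 9 tested tRNAs were above 0, the tRNAs from 0.08 to 1.20.

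Mitochondrial RNA also differed between the replicate sets. Every tested mitochondrial gene, 24 of 24, was called higher in replicates 3 and 4 than in replicates 1 and 2, against 69.5% of all genes called (36.2% higher, 33.3% lower). The median was 1.24 on the log2 scale for the mitochondrial genes and 0.01 for all genes. The mRNAs ranged from 1.15 for MT-ND1 to 1.59 ± 0.24 for MT-ND6, and the lowest value was 0.71 ± 0.15 for MT-RNR1. With log2 RNA concentration as a further term, 6 of the 24 were called. The share of all genes called in that fit is not given here, so the drop cannot be read as particular to mitochondrial genes. Every library of replicates 1 and 2 had a higher concentration (346 ng/µl or more) than every library of replicates 3 and 4 (330.0 ng/µl or less), so set and concentration cannot be told apart in full.

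The drug changes within the 2 sets were set against each other. All 13 mRNAs had larger values in replicates 3 and 4 with each drug, by 0.59 to 0.86 with the combination, 0.38 to 0.70 with afatinib and 0.03 to 0.15 with paclitaxel. Of the 9 tested tRNAs, 6 had larger values there with the combination, 3 with afatinib and 2 with paclitaxel. Of the 2 rRNAs, 1 did with the combination and none with either drug alone. For the combination 7 of the 24 genes had an unadjusted p under 0.05 (1107 of all 17991 genes did), led by MT-ND3 (0.85 ± 0.24, edgeR adjusted p = 0.798). For afatinib 2 of the 24 (339 of all genes) and for paclitaxel 1 (552 of all genes) had an unadjusted p under 0.05. None of the 24 passed edgeR's adjusted test for any drug, as was true of all 17991 genes (0% called), and DESeq2 called no mitochondrial gene either. For MT-ND4 the change with the combination was 0.99 in replicates 1 and 2 and 1.79 in replicates 3 and 4, and for MT-CO3 it was −0.50 and 0.17.

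**Figure D5:**
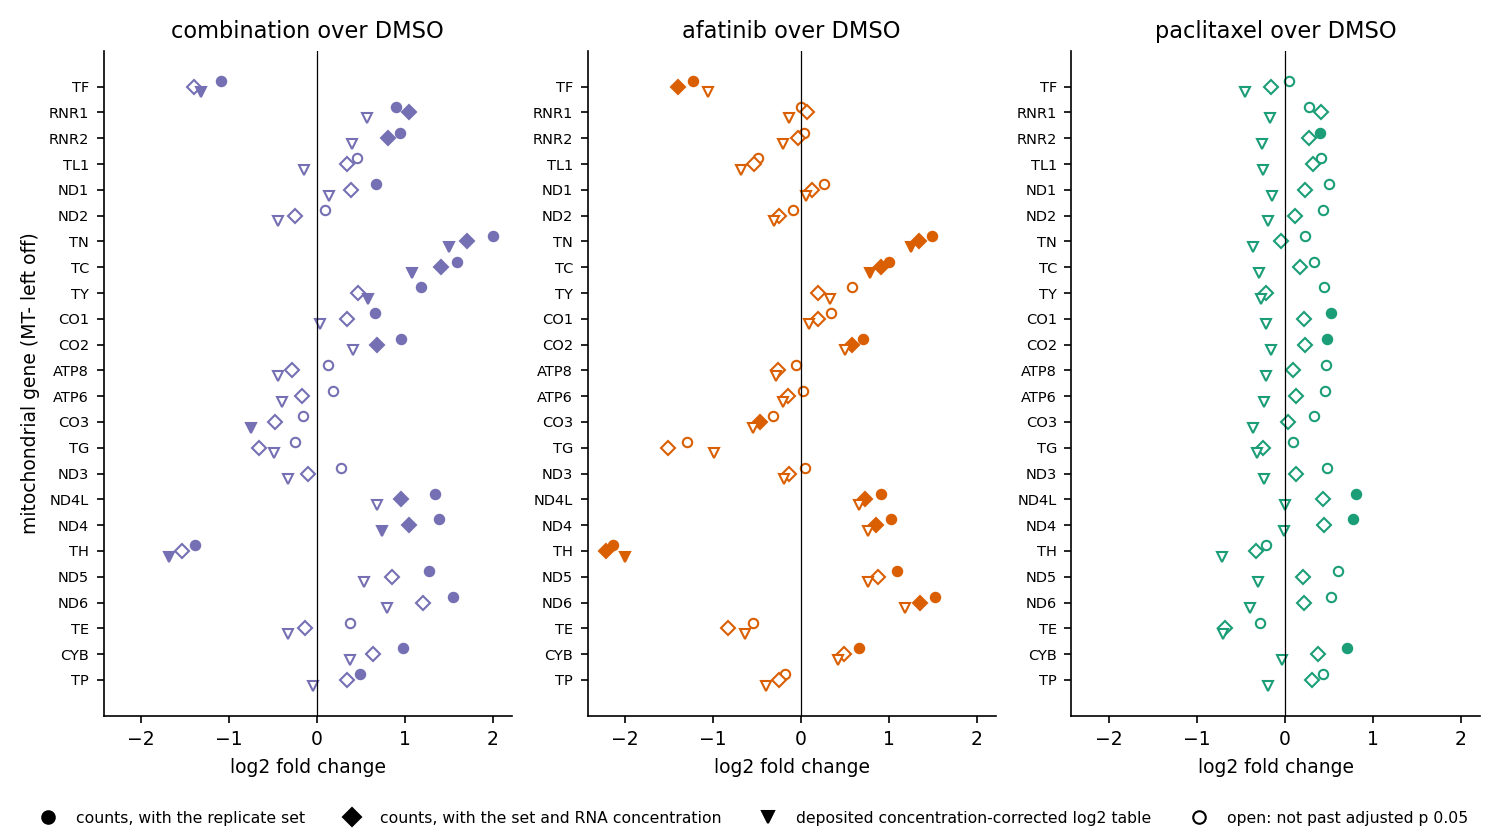
Log2 fold changes over DMSO of the 24 tested mitochondrial genes for the combination, afatinib and paclitaxel, from counts with the replicate set in the fit (circles), from counts with the set and log2 RNA concentration (diamonds) and from the deposited log2 table corrected for RNA concentration (triangles). Filled symbols passed an adjusted p of 0.05. In the combination panel MT-TN and MT-TC stay filled in all 3, and in the paclitaxel panel no diamond or triangle is filled.

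The deposited log2 table, which the authors corrected for RNA concentration, gave smaller changes for the mRNAs. Tested with limma, it called 7 of the 24 with the combination, 3 with afatinib and none with paclitaxel. MT-TN had 1.50 with the combination and 1.25 with afatinib there (adjusted p = 4.62e-05 and 0.000419), and MT-TC 1.08 and 0.78 (adjusted p = 0.00196 and 0.0401). MT-ND4 had 0.74 with the combination (adjusted p = 0.0497) and −0.01 with paclitaxel, where MT-CO1 (−0.22), MT-CO2 (−0.16) and MT-CYB (−0.034) were also below 0. MT-CO3 was among the 7, with a value below 0. The correction removes what moves with concentration, which differs between groups, so drug effect and concentration cannot be told apart in it.

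Nuclear genes hold copies of mitochondrial sequence, and reads that match both are uncertain. The table held 58 such rows, of which 12 were tested, and they took 0.0362 to 0.148% of a library's counts. Of the 12, 8 rose with the combination, 3 with afatinib and 3 with paclitaxel, and none fell. Among all genes 38%, 19.1% and 20.5% were called in these comparisons (18.5%, 9% and 8.65% higher). MTND4P12, on chromosome 5, had 1.40 ± 0.25 with the combination (adjusted p = 0.000998) and 1.04 ± 0.25 with afatinib, near the values of MT-ND4. MTND6P4 and MTND5P11, which lie beside it, had 1.50 ± 0.31 and 1.30 ± 0.25 with the combination. MTATP6P1, on chromosome 1, which had the most counts of these rows, had 0.18 ± 0.21 with the combination and 0.00 ± 0.21 with afatinib, the values of MT-ATP6. Adding all copies to the mitochondrial counts moved the mean share to 6.06% with the combination, 5.05% with afatinib, 5.02% with paclitaxel and 3.42% with DMSO.

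Among the nuclear genes that transcribe and maintain mitochondrial DNA (16 tested), 2 rose and 3 fell with the combination, 1 rose and 4 fell with afatinib, and 2 rose and 3 fell with paclitaxel. So 5 of 16 were called in each comparison, against 38% of all genes with the combination, 19.1% with afatinib and 20.5% with paclitaxel, and these same shares apply to the lists below. POLRMT, the mitochondrial RNA polymerase, fell by 0.25 with the combination (−0.25 ± 0.06, adjusted p = 0.0015) and by 0.26 with afatinib (−0.26 ± 0.06, adjusted p = 0.00311), and had −0.01 ± 0.06 with paclitaxel. TFAM, which packages mitochondrial DNA and activates its promoters, had −0.05 ± 0.05, −0.09 ± 0.05 and −0.01 ± 0.05 and passed no test. TWNK, the mitochondrial DNA helicase, fell with the combination (−0.20 ± 0.05) and with afatinib (−0.25 ± 0.05) and rose with paclitaxel (0.21 ± 0.05).

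Of 19 genes for the processing, stability and decay of mitochondrial RNA, 2 rose and 5 fell with the combination, none rose and 6 fell with afatinib, and 5 rose and 1 fell with paclitaxel. The 7 of 19 called with the combination are near the share of all genes (38%). LRPPRC, which with SLIRP keeps mitochondrial mRNAs stable, fell with the combination (−0.23 ± 0.06, adjusted p = 0.00456) and with paclitaxel (−0.21 ± 0.06, adjusted p = 0.0161, lost without DMSO replicate 1 or paclitaxel replicate 4, up to 0.054), and had 0.03 ± 0.06 with afatinib. SLIRP had −0.02 ± 0.07, −0.12 ± 0.07 and 0.13 ± 0.07 with the combination, afatinib and paclitaxel and passed no test. FASTKD5, needed to free mRNAs at junctions that no tRNA marks, fell with afatinib (−0.34 ± 0.06, adjusted p = 0.000139) and rose with paclitaxel (0.23 ± 0.06), and had −0.06 ± 0.06 with the combination.

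Of 18 genes for mitochondrial translation and tRNA modification, 4 rose and 2 fell with the combination, 1 rose and 1 fell with afatinib, and 2 rose and 1 fell with paclitaxel. GTPBP3, which modifies the wobble base of some mitochondrial tRNAs, had 25.0 ± 3.92 CPM with the combination, 46.5 ± 2.46 with afatinib and 37.1 ± 5.31 with paclitaxel, and 52.3 ± 3.03 with DMSO (SD, n = 4). It fell with the combination (−1.07 ± 0.09, adjusted p = 1.28e-09) and with paclitaxel (−0.51 ± 0.09, adjusted p = 0.000158), and had −0.17 ± 0.08 with afatinib. TRMU, which adds sulfur to the same wobble position, rose with the combination (0.48 ± 0.06) and with paclitaxel (0.31 ± 0.06) and had −0.02 ± 0.06 with afatinib.

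Of 7 regulators of mitochondrial biogenesis, 2 rose and 1 fell with the combination, 1 rose and none fell with afatinib, and 3 rose and 1 fell with paclitaxel. PPARGC1A, a coactivator of genes for mitochondrial biogenesis, rose in all 3 comparisons, to 4.14 ± 0.139 CPM with the combination, 3.18 ± 0.666 with afatinib and 3.26 ± 0.461 with paclitaxel, against 1.62 ± 0.346 with DMSO. No library of the 3 treatments overlapped with DMSO, whose highest was 2.06 CPM, and the log2 fold changes were 1.35 ± 0.14, 0.96 ± 0.14 and 1.02 ± 0.14. GABPB1 was the regulator that fell, by −0.38 ± 0.06 with the combination (edgeR adjusted p = 9.0e-06) and −0.23 ± 0.06 with paclitaxel (adjusted p = 0.0044). Of 74 tested proteins of the mitochondrial ribosome, 6 rose and 17 fell with the combination, none rose and 12 fell with afatinib, and 1 rose and 3 fell with paclitaxel, with medians of −0.04, −0.08 and −0.01. The 23 and 12 of 74 called with the combination and with afatinib are no more than the shares of all genes (38% and 19.1%). MRPL17 of its large subunit fell in all 3 (−0.47 ± 0.06, −0.20 ± 0.06 and −0.30 ± 0.06). In replicates 3 and 4 over 1 and 2, 66 of the 74 fell and 4 rose (median −0.44), while the 2 rRNAs of the same ribosome rose.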

How the data were processed

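RNA sequencing of 16 libraries was analysed from the counts the authors deposited, made with STAR 2.7.5b and featureCounts of Subread 2.0.1 on hg38, per the submitters' processing notes. A second table, of log2 values that the authors deposited after a correction for RNA concentration, served only as an alternative. Counting strand and the handling of reads with several matches are not given in the sources used here. Mitochondrial genes were the rows whose symbol starts with MT-. Their lengths were those of GENCODE v29, which gave positions and sequences. The members and gene lists were chosen with earlier results of these data known.

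Genes passed filterByExpr (minimum count 10, minimum total 15). After TMM scaling, edgeR 4.0.16 (R 4.3.3) fitted group and replicate set to the 16 libraries together, and its robust quasi-likelihood F-test gave the p-values. Calls needed an adjusted p under 0.05 (Benjamini-Hochberg, 17991 genes). SE is the absolute log2 fold change over the square root of F. Levels are TMM-scaled CPM. Named were the mRNAs, the rRNAs, tested tRNAs and, of each list, POLRMT, TFAM, LRPPRC, SLIRP and some of up to 4 called genes with the smallest p. Which of these are printed was chosen after their values were seen. Alternatives used DESeq2 1.42.0, limma 3.58.1, other scaling, other terms, each set alone and each library left out. The procedure was tested on simulated data. Shares of counts carry no interval, since counting error is far below the spread between libraries. The 171 rows without a symbol were kept in the library totals and tests.

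To see whether replicate numbers pair the libraries, deviations from the group means were correlated between libraries of the same number. The 24 correlations were 0.367 to 0.704 (median 0.590), all over 0.1. Across different numbers within a set the range was 0.384 to 0.670 (median 0.496). The deviations still hold the step between the replicate sets, so libraries of 1 set correlate whatever their numbers. Pairs of different numbers within a set hold the same step, and same-number pairs had the higher median beside them, with overlapping ranges. Over the tested mitochondrial genes alone the median was 0.345 for the same number (−0.164 to 0.810). It was −0.049 for different numbers within a set (−0.639 to 0.599). The difference was not tested, and the labels state no pairing. The main fit had the set and no replicate block, and the fit with the block was an alternative.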

Additional observations from a re-analysis of the deposited data

Results flagged for a closer look

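MT-TH in DMSO replicate 1 had 0.183 CPM, far from the other DMSO libraries with 0.58 to 0.647 CPM (8 counts, against 24 to 28). Its distance from the next library was 0.855 of the range of the group. It was the only such value among 100 groups of 4 libraries examined over the tested genes and the shares, and chance flags about 1 in 20 groups. Without DMSO replicate 1 MT-TH was still called lower with the combination and with afatinib.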

How the results depend on the processing

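Values are numbers of mitochondrial genes called, of 24 tested. The shares of all genes called under these settings are not given here. Against DMSO the counts of 16 with the combination, 10 with afatinib and 6 with paclitaxel became 2, 0 and 0 without the set term. They became 7, 3 and 0 in the deposited log2 table tested with limma. With log2 RNA concentration as a further term they were 7 with the combination and 0 with paclitaxel, and the interaction had 1 and the replicate sets 6. In replicates 1 and 2 alone paclitaxel had 10, and in replicates 3 and 4 alone 0. A fit of the compared groups alone gave 10 for paclitaxel. Without the low-count filter it was 3, and the interaction had 1, as with DESeq2. The combination over afatinib, with 6, had 0 without the set term, 1 in replicates 1 and 2, 11 with the compared groups alone and 2 in the deposited table. The combination over paclitaxel, with 10, had 1, 6, 6 and 6 under the same settings and 5 without the filter. RLE size factors and scaling by nuclear genes left each count within 1.5 times.

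With 1 library left out the counts ran from 13 to 17 for the combination, 8 to 11 for afatinib, 1 to 14 for paclitaxel, 4 to 9 for the combination over afatinib, 3 to 10 for the combination over paclitaxel, 0 to 1 for the interaction (1 without afatinib replicate 3 or paclitaxel replicate 2) and 23 to 24 for the replicate sets. With the replicate number as a block, the count for the interaction moved from 0 to 1. This block added MT-TG for afatinib, MT-TP for paclitaxel and MT-RNR1, MT-ND4L and MT-ND5 for the combination over paclitaxel. It changed no other call of a mitochondrial gene.

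Directions of called values reversed in a few places. In the deposited table, with paclitaxel, MT-RNR2 had −0.26, MT-CO1 −0.22, MT-CO2 −0.16, MT-ND4 −0.0085, MT-CYB −0.034 and the nuclear copy MTRNR2L12 −0.27, and MT-TP had −0.051 with the combination. With concentration in the fit, the set difference was −0.21 for MT-TY, −0.063 for FASTKD1 and 0.11 for PPARGC1A. MT-ND3 had −0.25 with afatinib in replicates 1 and 2 alone. The cause was not tested. Depth limits the tRNAs: 13 stayed below the filter, and MT-TH, MT-TF, MT-TG and MT-TE had 28 counts or fewer in each library.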
